A study of Rattus norvegicus with 12 samples.

Results

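Genes of DNA replication and the cell cycle were examined in rat lung, namely Pola2, Pcna, Top2a, Chek1, Ccnb1, Cdk1, Ube2c, Stmn1 and Ccnd1. Every probe set that the array annotation assigned to one of these 9 genes alone was taken, dim ones included. This gave 13 of the 15866 probe sets tested and 9 of the 10411 genes named. Of the genes, 6 had 1 probe set, Top2a and Ccnb1 each had a pair, and Ccnd1 had 3. No probe set named one of these genes together with another gene.

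Whole lung from 12 male Wistar rats was compared, with 1 array per animal and no pooling. The diabetic group (n = 7) was injected at an age of 8 weeks with streptozotocin, which kills pancreatic beta cells and so lowers insulin. The normal group (n = 5) received the buffer alone at the same age. All animals were fasted overnight and studied at 12 weeks of age, after 4 weeks of diabetes in the diabetic group. Only diabetic animals received the drug, so effects of streptozotocin itself and of diabetes on the lung cannot be told apart. Values are MAS 5.0 signals, which are intensities on a linear scale. Without the lowest and highest 2% of signals, the mean was 500.1 on each of the 12 arrays. A signal depends on the probes as well as on the transcript, so levels were not compared between probe sets. Whole lung holds many cell types, and its RNA carried strong signals for surfactant and airway genes. The 7 measured markers of alveolar type II and airway cells summed to signals of 85887 to 114509 in diabetic and 87546 to 105960 in normal lung.

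Cells that divide copy their DNA once and then separate the copies. Cyclin D1, the product of Ccnd1, works with CDK4 and CDK6 early in the cycle to release E2F transcription factors from the retinoblastoma protein. E2F factors switch on genes for DNA synthesis, among them the polymerase alpha complex, to which the Pola2 protein belongs, and PCNA, the sliding clamp that holds polymerases on DNA. CHK1, the kinase from Chek1, delays the cycle when replication stalls. Entry into mitosis depends on CDK1 with cyclin B1, topoisomerase II alpha (Top2a) untangles the copied chromosomes, and stathmin (Stmn1) regulates microtubules. The conjugating enzyme UBE2C passes ubiquitin to substrates of the anaphase-promoting complex, which ends mitosis. In adult lung most cells are not dividing, and transcripts of this kind come mainly from a small share of cells, although Ccnd1, Pcna and Stmn1 are also expressed outside the cycle.

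Promoters of these genes are known for E2F sites, CCAAT boxes and the cell cycle homology region (CHR), short elements through which many cell cycle genes are regulated together. The RefSeq promoter table (rat build GRCr8, 250 bases before to 50 bases after each start, 300 in all) held 7 of the 9 genes, all but Ube2c and Ccnd1. The sequences are those of the 4 of these genes with the lowest unadjusted p in diabetic lung (Chek1, Stmn1, Pola2 and Top2a) and of Cdk1, the mitotic kinase, whose signals overlapped widely. Each runs 5′ to 3′ on the strand of its gene in lower case, with CCAAT boxes (CCAAT), CHR elements (TTTGAA or TTCGAA) and E2F sites (TTTCCCGC, TTTGGCGC, TTTCGCGC or TTTGCCGC) in capitals, searched on both strands.
Chek1, chr8:44629794-44630093, minus strand: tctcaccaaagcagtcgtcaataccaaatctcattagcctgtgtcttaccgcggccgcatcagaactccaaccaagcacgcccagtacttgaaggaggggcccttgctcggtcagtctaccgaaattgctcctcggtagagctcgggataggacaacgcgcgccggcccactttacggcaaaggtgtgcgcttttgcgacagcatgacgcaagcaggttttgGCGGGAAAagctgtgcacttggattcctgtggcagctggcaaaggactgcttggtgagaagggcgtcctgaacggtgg
Stmn1, chr5:151964929-151965228, plus strand: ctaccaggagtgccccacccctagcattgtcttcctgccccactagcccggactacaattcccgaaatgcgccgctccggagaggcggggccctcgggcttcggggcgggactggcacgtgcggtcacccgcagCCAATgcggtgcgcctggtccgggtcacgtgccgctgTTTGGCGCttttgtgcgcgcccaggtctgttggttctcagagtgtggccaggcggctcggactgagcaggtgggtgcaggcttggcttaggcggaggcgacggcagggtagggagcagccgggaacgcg
Pola2, chr1:212680493-212680792, minus strand: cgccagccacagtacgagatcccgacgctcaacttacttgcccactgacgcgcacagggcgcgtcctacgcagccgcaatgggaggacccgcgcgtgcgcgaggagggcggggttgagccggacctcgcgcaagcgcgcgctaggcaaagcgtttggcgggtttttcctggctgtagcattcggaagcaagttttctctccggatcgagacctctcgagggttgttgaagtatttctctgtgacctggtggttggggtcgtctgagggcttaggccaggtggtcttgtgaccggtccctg
Top2a, chr10:84473044-84473343, minus strand: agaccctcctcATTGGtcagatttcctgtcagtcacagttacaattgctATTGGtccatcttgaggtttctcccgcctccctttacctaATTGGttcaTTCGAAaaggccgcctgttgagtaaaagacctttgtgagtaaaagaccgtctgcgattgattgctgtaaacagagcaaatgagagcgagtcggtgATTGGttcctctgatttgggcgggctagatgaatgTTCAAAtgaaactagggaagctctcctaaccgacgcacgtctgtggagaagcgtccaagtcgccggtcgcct
Cdk1, chr20:19265043-19265342, plus strand: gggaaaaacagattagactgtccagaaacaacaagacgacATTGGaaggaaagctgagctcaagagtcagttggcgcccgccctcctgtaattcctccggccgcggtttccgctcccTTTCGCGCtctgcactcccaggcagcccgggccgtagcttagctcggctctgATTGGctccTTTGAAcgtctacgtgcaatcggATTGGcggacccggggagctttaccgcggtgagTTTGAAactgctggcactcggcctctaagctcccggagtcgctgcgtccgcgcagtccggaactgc

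The Chek1 window held 1 E2F match, at position -28 from the start, and no match to the other 2 motifs. Stmn1 held 1 E2F match at -79 and 1 CCAAT box at -116. Top2a held 4 CCAAT boxes and 2 CHR matches, Cdk1 held 3 CCAAT boxes, 2 CHR matches and 1 E2F match at -133, and Pola2 held none of these letters. Of the others, Pcna held 1 CCAAT box and Ccnb1 held 2. In all, CCAAT boxes were found in 5 of 7 windows, CHR in 2 of 7 and E2F in 3 of 7. Over all 27457 rat promoter windows of 300 bases the shares were 37.7% for CCAAT, 19.5% for CHR and 2.25% for E2F. No matches overlapped in these 7 windows. These are matches of letters and were not tested for binding.

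Across the 13 probe sets, diabetic lung had a lower mean log2 signal than normal lung for 12 (92.3%, against 54.8% of all probe sets) and a higher one for 1. None passed the threshold of an adjusted p of 0.05 (limma, Benjamini-Hochberg over all probe sets), and the lowest adjusted p among them was 0.128. This compares with 7 of all 15866 probe sets, or 0.0441%, past the same threshold, a number that was 20 without diabetic animal 6 and 0 without any 1 of diabetic animals 1, 2, 3 and 7 or normal animals 3 and 4. At an unadjusted p under 0.05 in the same limma fit, 5 of 13 were lower in diabetic lung (38.5%, against 6.71% of all probe sets) and 0 were higher (5.96% of all probe sets). These were Stmn1, Ube2c, Pola2, Chek1 and 1 probe set of Top2a. All diabetic values lay below all normal values for Chek1 and Ube2c, 2 of 13 probe sets or 15.4%, compared with 0.775% of all probe sets, and 0 of 13 were wholly above (0.605%). The median change of the 13 was -0.32 on the log2 scale, and that of all probe sets was -0.02. Pcna and Ccnd1 (1383075_at), counted among the 12 below 0, also had -0.02. With each array centred on its median, 10 of 13 were below 0. Of the 12, 3 were probe sets of Ccnd1. Pola2 and Chek1 belong to the genes that the study selected on these same animals, and the other 7 were chosen with earlier results of these data known, so no count here is independent evidence of a direction. In whole tissue, fewer cells of a type and less RNA per cell cannot be told apart.

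**Figure D1:**
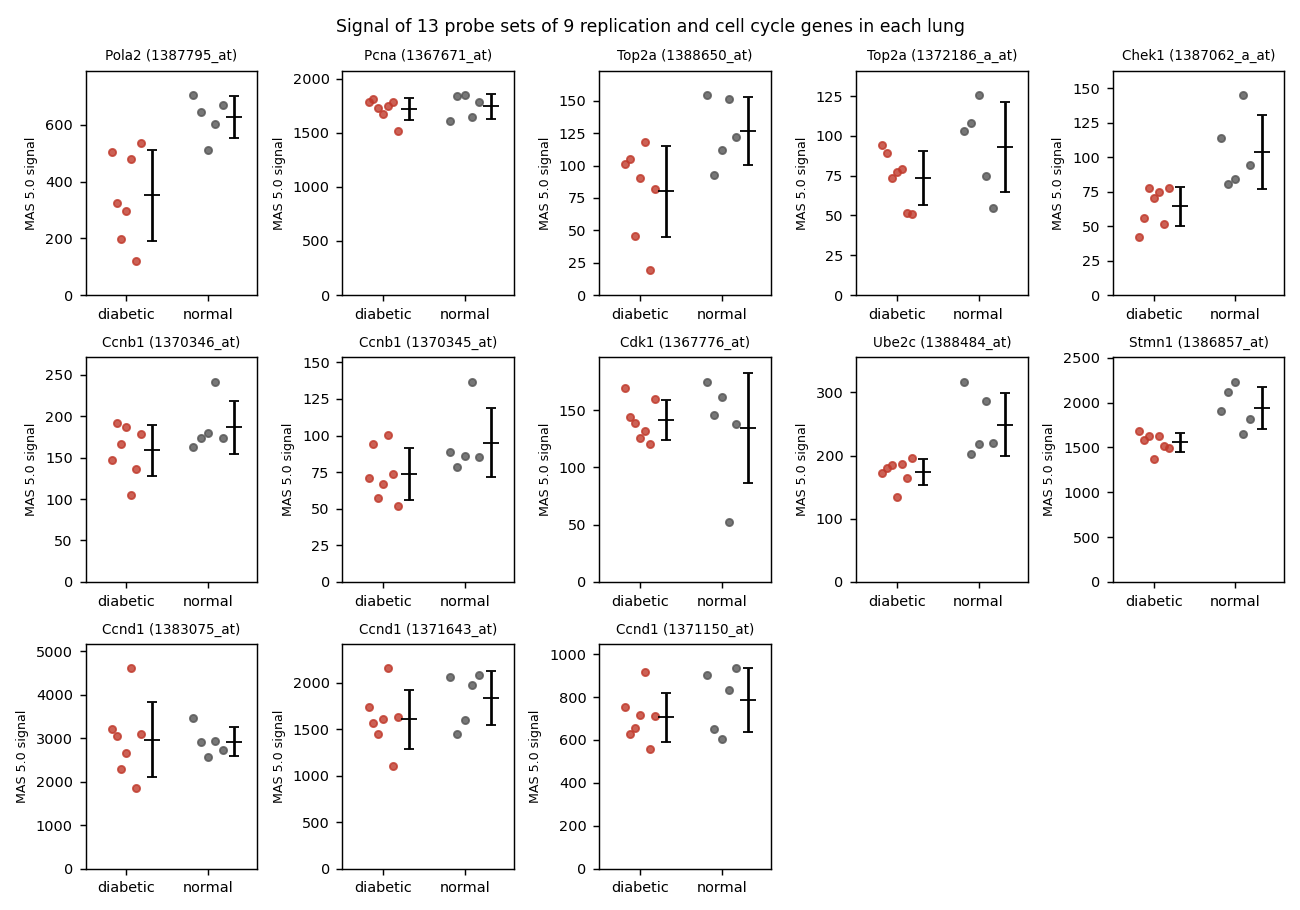
MAS 5.0 signal (y axis, linear, from 0) of each of the 13 probe sets in each diabetic (red, n = 7) and normal (grey, n = 5) lung, with the mean and SD beside the points. Chek1 and Ube2c show no overlap between the groups, Pola2 and Stmn1 overlap by 1 diabetic lung, and Pcna and Cdk1 overlap widely.

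DNA synthesis itself was represented by Pola2 and Pcna, and the 2 genes differed in their values. Pola2 encodes the accessory subunit of the polymerase alpha and primase complex, which lays down the first stretch of new DNA. Its signal was lowest at 119 in diabetic lung, with a median of 326 and a highest value of 536, against 707, 647, 513, 602.5 and 671 in the normal lungs. Of the 7 diabetic lungs 6 lay below every normal lung, and the seventh, diabetic animal 7, lay just above the lowest normal lung. The mean was 351 ± 161 (SD, n = 7) in diabetic and 628 ± 74.7 (SD, n = 5) in normal lung. This is a log2 change of -1.0 (SE 0.31), with an unadjusted p of 0.00589 and an adjusted p of 0.202 in limma. An exact permutation test of this single probe set gave p = 0.00505 (two-sided). The spread was also unequal, with a ratio of highest to lowest signal of 4.49 in diabetic and 1.38 in normal lung. Without diabetic animal 6, the lowest, the log2 change was -0.76 (limma, adjusted p = 0.183).

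Pcna, whose product clamps polymerases to DNA and also serves in repair, was almost equal in both groups. Its signal had a lowest value of 1518, a median of 1749.6 and a highest value of 1812 in diabetic lung, against 1604, 1842, 1852, 1645 and 1781 in normal lung. The ranges overlapped almost completely. The log2 change was -0.02 with an SE of 0.06 (limma, adjusted p = 0.932), the smallest SE among the 13 probe sets. The exact permutation test of Pcna gave p = 0.742.

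Top2a, which encodes the topoisomerase that untangles chromosomes and is made mostly in cycling cells, was measured by 2 dim probe sets. The first (1388650_at) had signals of 19.7 at the lowest, 90.1 at the median and 118 at the highest in diabetic lung, against 155, 92.3, 112, 151.5 and 122 in normal lung. Diabetic animals 3 and 6 were far below all normal lungs, diabetic animals 4 and 7 lay just below the lowest normal lung, and diabetic animals 1, 2 and 5 overlapped with the normal ones. Its mean was 80.1 ± 35.1 (SD, n = 7) in diabetic and 127 ± 26.5 (SD, n = 5) in normal lung. The log2 change was -0.83 (SE 0.38), with an unadjusted p of 0.0466 and an adjusted p of 0.390 in limma, and the exact permutation test gave p = 0.0278. The size of that change rested most on 1 lung. Without diabetic animal 6 it was -0.52, with an unadjusted p of 0.0502 in limma. Leaving out each animal gave an unadjusted p of 0.0276 to 0.0973 in limma. It was above 0.05 without any 1 of diabetic animals 3, 6 and 7 or normal animals 1, 3, 4 and 5. The second probe set (1372186_a_at) ranged from 50.7 to 94.3 in diabetic and from 54.8 to 126 in normal lung. Its log2 change was -0.32 (SE 0.24, limma adjusted p = 0.633). The deviations of the 2 probe sets from their group means had a Pearson r of 0.36 over the 12 arrays, so they ranked the lungs only loosely alike.

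Among genes of the replication checkpoint, Chek1 encodes the kinase that halts the cycle at stalled forks. Its signals were 42.3 at the lowest, 70.5 at the median and 77.5 at the highest in diabetic lung, against 114, 80.5, 84.0, 145 and 94.2 in normal lung. The highest diabetic lung was below the lowest normal lung by a small margin. Means were 64.3 ± 14.3 (SD, n = 7) in diabetic and 104 ± 26.6 (SD, n = 5) in normal lung. The log2 change was -0.68 (SE 0.22), with an unadjusted p of 0.00724 and an adjusted p of 0.218 in limma. The exact permutation test gave p = 0.00253, the smallest value that splits of 7 and 5 animals allow. Chek1 was a dim probe set, left out by a filter on the 40% with the lowest mean signal. Normal animals 1 and 4 were highest, and without normal animal 4 the log2 change was -0.55.

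For the genes of mitotic entry the groups overlapped, unlike for Chek1, and differences between genes were not tested. Ccnb1 encodes cyclin B1, whose level sets the timing of mitosis. Its brighter probe set (1370346_at) had signals of 105 at the lowest, 167 at the median and 192 at the highest in diabetic lung, against 163, 174, 179.5, 242 and 174 in normal lung. The other (1370345_at) ranged from 52.1 to 101 in diabetic and from 78.8 to 137 in normal lung. Normal animal 4 was the highest lung for both, and the groups overlapped otherwise. The log2 changes were -0.24 (SE 0.17, limma adjusted p = 0.578) and -0.37 (SE 0.21, limma adjusted p = 0.491). Without normal animal 4 they were -0.15 and -0.23. Within the normal group the 2 probe sets had r = 0.94 over 5 arrays, a value that rested on normal animal 4, far above the others for both. Within the diabetic group they had r = -0.49 over 7 arrays. The difference in r between the groups was not tested.

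Cdk1, which encodes the kinase partner of cyclin B1, was the only probe set of the 13 with a positive log2 change. Its signals were 120 at the lowest, 139 at the median and 169 at the highest in diabetic lung, against 175, 146, 162, 52.4 and 138 in normal lung. Normal animal 4, which was highest for Ccnb1, was far below all others for Cdk1. Means were 141 ± 17.8 (SD, n = 7) in diabetic and 135 ± 48.1 (SD, n = 5) in normal lung, a log2 change of 0.18 (SE 0.25, limma adjusted p = 0.819). The sign rested on that 1 lung, and without it the log2 change was -0.14.

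Ube2c, whose product starts the destruction of cyclin B at the end of mitosis, was lower in every diabetic lung than in any normal lung. Signals were 135 at the lowest, 180.5 at the median and 196 at the highest in diabetic lung, against 317, 203, 218, 286 and 219 in normal lung. The gap between the highest diabetic and the lowest normal lung was small. The diabetic lungs lay close together, while normal animals 1 and 4 stood above the other 3 normal lungs. Means were 174 ± 20.1 (SD, n = 7) in diabetic and 249 ± 49.96 (SD, n = 5) in normal lung. The log2 change was -0.50 (SE 0.14), with an unadjusted p of 0.00290 and an adjusted p of 0.166 in limma, and the exact permutation test gave p = 0.00253.

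Stmn1, which encodes the microtubule regulator stathmin, had the lowest p of the 13. Its signals were 1366 at the lowest, 1582.5 at the median and 1685 at the highest in diabetic lung, against 1903, 2118, 2236, 1652 and 1818 in normal lung. All but 1 of the 7 diabetic lungs lay below every normal lung, the exception being diabetic animal 1, which was above normal animal 4. Means were 1557 ± 107 (SD, n = 7) in diabetic and 1945 ± 234 (SD, n = 5) in normal lung. The log2 change of -0.32 (SE 0.08) was smaller than that of Pola2 or Chek1 but had a smaller error, with an unadjusted p of 0.00131 and an adjusted p of 0.128 in limma. The exact permutation test gave p = 0.00505. When the 40% dimmest probe sets were left out the adjusted p was 0.0926 for Stmn1, 0.102 for Ube2c and 0.134 for Pola2.

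Cyclin D1 couples growth signals to the start of the cycle, and Ccnd1 was read by 3 bright probe sets. The brightest (1383075_at) had signals of 1864 at the lowest, 3047 at the median and 4606 at the highest in diabetic lung, against 3467, 2908, 2564, 2929.5 and 2738 in normal lung. Its mean was 2968 ± 868 (SD, n = 7) in diabetic and 2921 ± 339 (SD, n = 5) in normal lung. The groups had close means but the diabetic lungs were more widely spread, with diabetic animal 5 the highest and diabetic animal 6 the lowest of all 12 lungs. The log2 changes were -0.02 (SE 0.17), -0.20 (SE 0.14) for 1371643_at and -0.15 (SE 0.13) for 1371150_at, with limma adjusted p of 0.976, 0.587 and 0.683. Diabetic animal 5 was the highest diabetic lung and diabetic animal 6 the lowest for all 3. Deviations from the group means agreed between the 3 probe sets with r of 0.72 to 0.93 over 12 arrays.

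**Figure D2:**
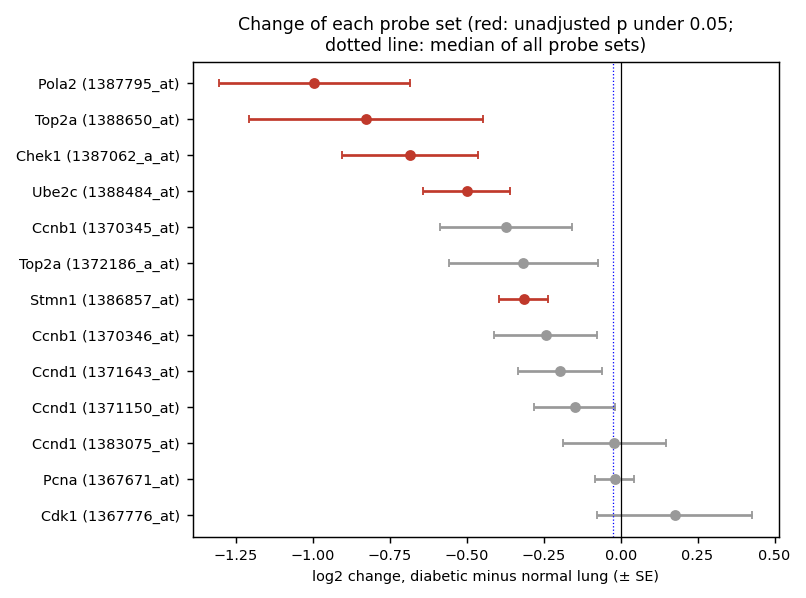
Log2 change, diabetic minus normal (x axis), of each of the 13 probe sets with its SE as the bar, red where the unadjusted p was under 0.05, with a dotted line at the median of all probe sets (-0.02). Pola2 lies at -1.0, Pcna at -0.02 and Cdk1 at 0.18, and the 5 red points lie to the left of the median.

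The diabetic lungs did not deviate alike. In diabetic animal 6, 12 of the 13 probe sets were below the normal mean on the log2 scale with a median difference of -0.57, and it was the lowest diabetic lung for 6 of them. Diabetic animal 3 also had 12 below the normal mean, with a median of -0.33. At the other end, diabetic animals 2 and 5 had 7 below it, with medians of -0.21 and -0.08. Among the normal lungs the number below the normal mean was 4 to 9 of 13. The array of diabetic animal 6 had a mean r of 0.952 with the other diabetic arrays over all probe sets, against 0.957 to 0.962 for the other 6 diabetic arrays, so it stood slightly apart overall. Normal animal 4 had 0.947, against 0.953 to 0.958 for the other 4 normal arrays.

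**Figure D3:**
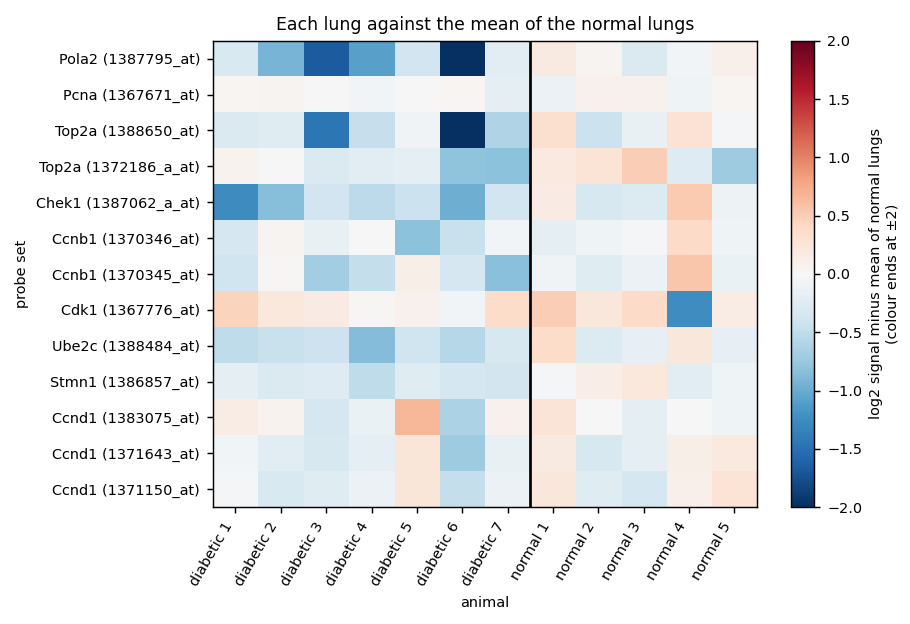
Log2 signal of each probe set (rows) minus the mean of the normal lungs, in each of the 7 diabetic and then the 5 normal lungs (columns), with the colour scale ending at -2 and 2. Diabetic animal 6 is lowest for Pola2 and Top2a (1388650_at), both beyond the end of the scale, and normal animal 4 is low for Cdk1 and high for Ccnb1.

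Pola2, Ccnd1 and 1 of the 2 probe sets of Top2a varied together in their deviations from the group means. Taken as deviations of log2 signal from the group mean over the 12 arrays, Pola2 and Top2a (1388650_at) had a Pearson r of 0.86, and Pola2 had r of 0.85, 0.76 and 0.62 with the 3 Ccnd1 probe sets. Top2a (1388650_at) had 0.84, 0.85 and 0.64 with the same 3. Within single groups, Pola2 and Top2a (1388650_at) had r of 0.90 in diabetic and 0.27 in normal lung. The other Top2a probe set (1372186_a_at) did not follow them, with r of 0.18 with Pola2 and 0.31, 0.02 and -0.22 with the Ccnd1 probe sets. The points share arrays and scaling, and diabetic animal 6 carried part of the relation. Without that animal, over 11 arrays, r of Pola2 was 0.64 with Top2a (1388650_at) and 0.74, 0.53 and 0.50 with the Ccnd1 probe sets. Chek1, Ube2c and Stmn1, each lower in diabetic lung by its mean, were less alike over the 12 arrays. Chek1 and Ube2c had r = 0.50, and Chek1 and Stmn1 had r = -0.60. By group, Chek1 and Ube2c had r of 0.84 in normal and 0.17 in diabetic lung. With Top2a (1388650_at), Chek1 had 0.88 in normal and 0.14 in diabetic lung, and Ube2c had 0.93 and 0.10. The r by group are over only 5 normal and 7 diabetic arrays, and their differences were not tested. Normal animals 1 and 4 were the highest normal lungs for Chek1, Ube2c and Top2a (1388650_at). Among the rest, Pcna and Chek1 had r = -0.72 and Cdk1 and Stmn1 had r = 0.66. Over all 73 pairs of probe sets of different genes, r ranged from -0.72 to 0.86 with a median of 0.115, and 9 pairs were above 0.6 and 3 below -0.6.

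**Figure D4:**
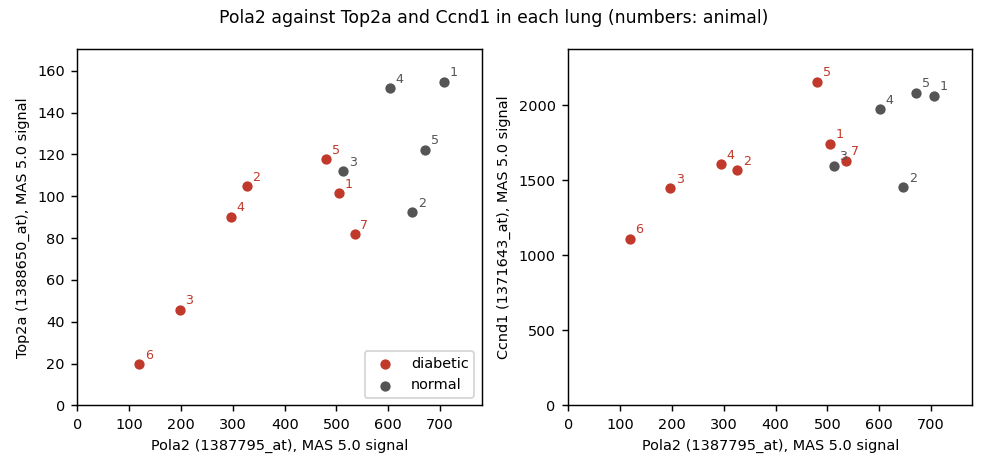
MAS 5.0 signal of Pola2 (x axis) against Top2a (1388650_at, left) and Ccnd1 (1371643_at, right) in each lung, both axes linear from 0, with diabetic lungs in red, normal lungs in grey and the number of each animal beside its point. Diabetic animal 6 is the lowest lung in both panels, at 119 for Pola2, 19.7 for Top2a and 1110.2 for Ccnd1.

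Sums of fibroblast, T cell and B cell markers deviated with Pola2, in part through diabetic animal 6. The 11 measured fibroblast markers summed to signals of 14237 to 26960 in diabetic and 30003 to 31244 in normal lung. None was at the floor on all arrays. At an unadjusted p under 0.05, 8 of 11 were lower (72.7%, against 7.62% of all genes) and 1 (Pdgfra) was higher (6.04% of all genes). Tcf21 and Dcn also had log2 changes above 0, at 0.15 and 0.19 (limma adjusted p = 0.629 and 0.758). The sum is of linear signals, so its brightest genes weighed most. Col3a1 and Mfap4 had means of 8739 and 8714 in normal lung, where the mean sum was 30721. Diabetic animal 6 had the lowest sum and diabetic animal 5 the highest of the diabetic group. The deviations of the log2 sum had r of 0.92 with Pola2, 0.87 with Top2a (1388650_at) and 0.83, 0.79 and 0.65 with the Ccnd1 probe sets over 12 arrays, against 0.30 with Top2a (1372186_a_at), 0.18 with Chek1, 0.07 with Ube2c and 0.08 with Stmn1. Without diabetic animal 6 they were 0.82 for Pola2 and 0.55 for Top2a (1388650_at). The 9 measured T cell markers summed to 1532 to 3658 in diabetic and 2824 to 3383 in normal lung. Of these, 1 of 9 (Cd4) was lower at an unadjusted p under 0.05 (11.1%, against 7.62% of all genes). Their r was 0.90 with Pola2 and 0.90 with Top2a (1388650_at), and 0.16, 0.16 and 0.11 with Chek1, Ube2c and Stmn1. Without diabetic animal 6 the T cell r was 0.76 with Pola2 and 0.615 with Top2a (1388650_at). Of 9 B cell markers only 2 were measured. They summed to 89.5 to 310.6 in diabetic and 268 to 414 in normal lung, with Cd79b lower. The other, Fcer2, had means of only 4.81 in diabetic and 6.04 in normal lung, so the sum is nearly Cd79b alone. Its r was 0.82 with Pola2 and 0.73 with Top2a (1388650_at), and 0.61 and 0.32 without diabetic animal 6. Of 4 measured markers of alveolar type I cells, the flat cells of gas exchange, 2 were lower at an unadjusted p under 0.05 (50%, against 7.62% of all genes). They were Aqp5 (log2 change -0.52) and Ager (-0.24). The 4 summed to 20828 to 26157 in diabetic and 24541 to 28480 in normal lung, with none at the floor on all arrays, and their r was 0.69 with Ube2c, 0.22 with Chek1, 0.00 with Stmn1 and -0.31 with Pola2. The part of these cells in the values of the 9 genes was not tested.

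A control for RNA quality also differed between the groups. For GAPDH, signals of control probe sets at the 3′ end divided by those at the 5′ end were 1.15 ± 0.0710 (SD, n = 7) in diabetic and 1.32 ± 0.0778 (SD, n = 5) in normal lung (exact permutation test, p = 0.00758). The same ratio for beta-actin was 2.08 ± 0.372 (SD, n = 7) in diabetic and 2.06 ± 0.437 (SD, n = 5) in normal lung (exact permutation test, p = 0.904). Deviations of the GAPDH ratio had r of -0.67 with Pola2, -0.65 with Cdk1, -0.61 with Top2a (1388650_at), -0.45 with Stmn1, 0.25 with Ube2c and 0.20 with Chek1 over 12 arrays. With the GAPDH ratio as a covariate in limma, Pola2 had a log2 change of -2.0 and passed the threshold (adjusted p = 0.0303), while Ube2c had -0.37 (adjusted p = 0.497) and Chek1 -0.53 (adjusted p = 0.553). Top2a (1388650_at) had -1.89 (adjusted p = 0.0989) and Stmn1 -0.46 (adjusted p = 0.0886) in that model, and 170 probe sets passed over the whole array. The part of RNA quality in these values was not tested further.

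Each member was next read by its brightest probe set alone. The named genes most alike to each member in their deviations, among 8035 probe sets outside the dimmest 40%, were taken over 12 arrays. For Pola2 they were Bola3, Mfap4 and Fam114a1, each at r = 0.95. Mfap4 encodes a microfibril protein of the extracellular matrix and is in the fibroblast marker list. Its signal was 5348 ± 2306 (SD, n = 7) in diabetic and 8714 ± 666 (SD, n = 5) in normal lung, a log2 change of -0.86 (SE 0.30, limma adjusted p = 0.253). Mfap4 was also among the 3 most alike to Top2a (1388650_at, r = 0.94), beside Pyurf (0.96) and Ly6l (0.93). For Ccnd1 they were Cd93, a receptor of endothelial and myeloid cells (0.93), Adck1 (0.93) and Fhl1 (0.92). Chek1 was closest to Aif1, a gene of macrophages (0.91), Camsap3 (0.88) and Actr6 (0.86). Ube2c was closest to Yme1l1 (0.89), Rad54l2 (0.87) and Thoc5 (0.86), and Stmn1 to Nampt (0.86), Kiaa1191 (0.84) and Cetn2 (0.84). Ccnb1 was closest to Ep400 (0.90), Pop5 (0.89) and Mmp24 (0.86), Cdk1 to Ptpn23 (0.95), Gtf2b (0.93) and Dhx16 (0.93), and Pcna to Ttc3 (0.85), Acsl1 (0.84) and Rpl13a (0.84). These are the highest of many correlations over few arrays and are given as a description. Diabetic animal 6 was the lowest lung for Pola2 and Top2a (1388650_at), and likeness without it is not given here.

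The other genes of the cycle were taken from 6 lists without the 9 genes above, by the brightest probe set of each gene. Of 186 genes, 122 were measured. None passed the adjusted threshold in limma, compared with 0.0672% of all genes. At an unadjusted p under 0.05, 20 of 122 were lower in diabetic lung (16.4%, against 7.62% of all genes) and 4 were higher (6.04% of all genes). A log2 change below 0 was found for 78 of 122, against 55.7% of all genes, and the median was -0.09, against -0.03 over all genes. Without normal animal 4, 14 were lower.

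Genes of G2 and mitosis had the lowest median of the 6 lists. Of 36 measured, 29 had a log2 change below 0, against 55.7% of all genes, and the median was -0.24. At an unadjusted p under 0.05, 8 were lower (22.2%, against 7.62% of all genes) and 0 higher (6.04% of all genes). Only 9 of the 36 were outside the dimmest 40%, so most were read from weak signals. Their summed signal was 6312 to 6935 in diabetic and 7546 to 8079 in normal lung, without overlap. This sum is of linear signals, so its brightest genes weighed most. Bub3 and Ube2s had means of 1455 and 1194 in normal lung, where the mean sum was 7696. Pttg1, which encodes securin, the guard of sister chromatid cohesion, had 214 ± 33.3 (SD, n = 7) in diabetic and 307 ± 56.7 (SD, n = 5) in normal lung (log2 change -0.52, SE 0.14, limma adjusted p = 0.151). Its ranges were 167 to 256 in diabetic and 269.8 to 406 in normal lung, with no overlap. Of all probe sets, 0.775% were wholly lower in diabetic lung in this way. Mki67, the gene of the proliferation marker Ki-67, had 58.6 ± 16.8 (SD, n = 7) in diabetic and 107 ± 27.1 (SD, n = 5) in normal lung (log2 change -0.89, SE 0.24, limma adjusted p = 0.160). Kif22, a chromosome-bound kinesin, had a log2 change of -0.56 (SE 0.17, adjusted p = 0.183). Lmnb1, which encodes lamin B1 of the nuclear envelope, had -0.30 (SE 0.10, adjusted p = 0.234), with signals of 304 to 387 in diabetic and 390.0 to 524 in normal lung.

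**Figure D5:**
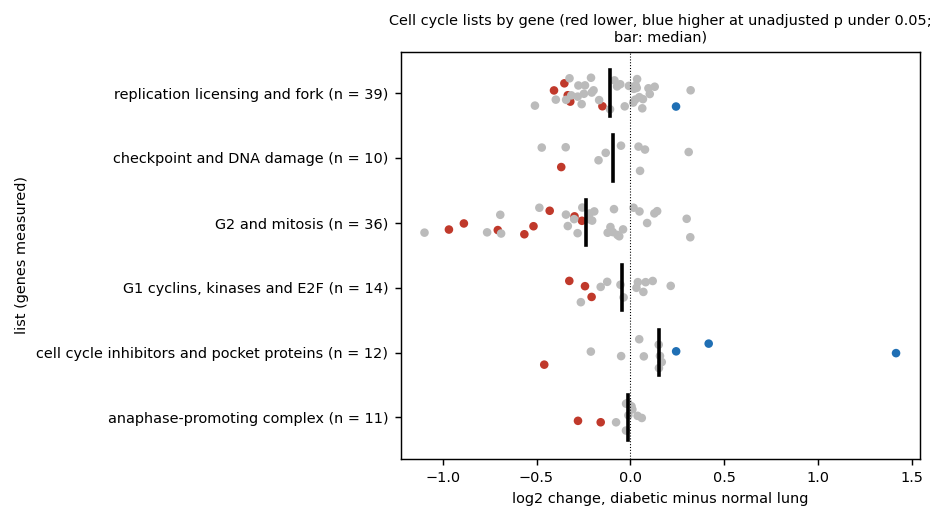
Log2 change, diabetic minus normal (x axis), of each measured gene of the 6 cell cycle lists (points, 122 genes without the 9 described above), with the median of each list marked. The median of the G2 and mitosis list lies at -0.24 and that of the inhibitors and pocket proteins at 0.15, and the gene farthest to the right is Cdkn2a at 1.42.

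Replication licensing and fork genes were spread closer to 0. Of 39 measured, 25 had a log2 change below 0, against 55.7% of all genes, and the median was -0.11. At an unadjusted p under 0.05, 5 were lower (12.8%, against 7.62% of all genes) and 1 was higher (6.04% of all genes). The 1 higher gene, Top1, encodes the topoisomerase that relaxes DNA ahead of forks and of transcription, and had 1151 ± 99.7 (SD, n = 7) in diabetic and 971 ± 58.4 (SD, n = 5) in normal lung (log2 change 0.24, SE 0.07, limma adjusted p = 0.183). Dut, which keeps uracil out of DNA, had 726 ± 61.9 (SD, n = 7) in diabetic and 913 ± 146 (SD, n = 5) in normal lung (log2 change -0.32, SE 0.10, adjusted p = 0.199). Fen1, the flap nuclease of lagging strands, had a log2 change of -0.35 (adjusted p = 0.265), and Rfc3, a subunit of the loader of PCNA, had -0.41 (adjusted p = 0.352). The summed signals of the list overlapped, at 12062 to 13117 in diabetic and 12607 to 13570 in normal lung.

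The remaining lists were shorter. Of 10 checkpoint genes 1 was lower at an unadjusted p under 0.05 (10%, against 7.62% of all genes). This was Gadd45a, a stress-induced gene of growth arrest, at -0.37 (SE 0.13, limma adjusted p = 0.265). Chek2, Mdm2 and Wee1 had -0.34, -0.13 and 0.31 (adjusted p = 0.615, 0.683 and 0.725). Of 14 G1 cyclin, kinase and E2F genes 3 were lower (21.4%). These were E2f6 (-0.33), Ccnd3 (-0.21) and Cdk4 (-0.24), with adjusted p of 0.335, 0.387 and 0.393 in limma, and the next, Ccnh, had 0.12. Of 11 genes of the anaphase-promoting complex, to which UBE2C delivers ubiquitin, 2 were lower (18.2%), Cdc16 at -0.28 and Anapc11 at -0.16 (limma adjusted p = 0.324 and 0.352), while Anapc5 and Anapc7 had -0.08 and 0.06.

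Cell cycle inhibitors and pocket proteins lay to the other side, with a median of 0.15. At an unadjusted p under 0.05, 3 of 12 measured were higher (6.04% of all genes) and 1 was lower (8.33%, against 7.62% of all genes). A log2 change below 0 was found for 3 of 12, against 55.7% of all genes. Cdkn1b, which encodes the CDK inhibitor p27, had 3756 ± 881 (SD, n = 7) in diabetic and 2834 ± 649 (SD, n = 5) in normal lung (log2 change 0.42, SE 0.17, limma adjusted p = 0.316). Rb1, the gene of the retinoblastoma protein, had 0.24 (SE 0.10, adjusted p = 0.308). Cdkn2a, the locus of p16 and ARF, had 46.0 ± 14.2 (SD, n = 7) in diabetic and 23.4 ± 19.8 (SD, n = 5) in normal lung, a log2 change of 1.42 (SE 0.50, adjusted p = 0.265) at a very weak signal. Cdkn2c, which encodes the CDK4 and CDK6 inhibitor p18, was the 1 lower gene and had the lowest p of this list (limma, unadjusted p = 0.000286). It had 418 ± 46.0 (SD, n = 7) in diabetic and 574 ± 69.9 (SD, n = 5) in normal lung (log2 change -0.46, SE 0.10, limma adjusted p = 0.101). The groups did not overlap, and 0.775% of all probe sets were wholly lower in diabetic lung. Cdkn2b and Rbl2 also had log2 changes below 0, at -0.21 and -0.05 (limma adjusted p = 0.489 and 0.880).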

How the data were processed

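Lung RNA of 12 rats, 1 array per animal, was measured on the Affymetrix RAE 230A platform. The authors made the deposited intensity values with MAS 5.0, which sets perfect match against mismatch probes. The mean signal without the 2% at either end was 500.1 on each of the 12 arrays, so they came scaled alike. Replicates were not pooled. Of 15923 probe sets 57 controls were left out, and 1 value at or below 0 was set to 0.1 before log2 transformation. Genes were named through the platform annotation. All 15866 probe sets entered a limma 3.58.1 model in R 4.3.3 (trended eBayes, two-sided p, Benjamini-Hochberg adjustment, threshold 0.05), with no filter on low signals. Single values were tested by exact permutation (scipy 1.17.1, 792 splits of the animals), doubling the smaller tail, so that p could not go below 0.00253. The fit was tested on simulated data. The number of arrays limits precision.

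All members are named, with the 4 genes of lowest p in each cell cycle list and the 3 most alike genes. Members and lists were chosen with earlier results of these data known. Alternatives covered scaling, pseudocount, filter, variance model, array weights, RNA quality ratios as covariates, a replicate block and leaving out each animal. The methods' Bayesian software, the present and absent calls and the RT-PCR were not used here. Promoter sequences are from RefSeq (GRCr8).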

Additional observations from a re-analysis of the deposited data

Results flagged for a closer look

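Normal animal 4 stood far from the other 4 normal lungs for both Ccnb1 probe sets. Its signal was 242.0 for 1370346_at, where the others lay between 162.9 and 179.5, and the gap to the nearest was 0.79 of the whole range. It was 136.9 for 1370345_at, where the others lay between 78.8 and 88.6, with a gap of 0.831 of the range. Chance gives such a gap in about 1 of 20 groups, and 2 of the 26 groups of values of these probe sets showed one. The same lung had the lowest Cdk1 signal of all 12 lungs (52.4).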

How the results depend on the processing

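The number of probe sets past the threshold over the whole array, 7 in the reported limma fit, was 16 without the 40% dimmest, 13 after quantile normalization, 0 with no intensity trend, 23 with array weights, 170 with the GAPDH ratio and 19 with the beta-actin ratio as a covariate, and 44 at an adjusted p under 0.10. Leaving out each animal gave 0 to 20, with 0 without diabetic animals 1, 2, 3 or 7 or normal animals 3 or 4, 1 without normal animal 2, 3 without diabetic animal 4 and 20 without diabetic animal 6. Members past the threshold stayed at 0 except with the GAPDH covariate, where Pola2 passed (1), as did 1 list gene (Cdkn1c, log2 change 0.73), which was named after its value was seen, and 7 list genes were higher at an unadjusted p under 0.05. Members lower at an unadjusted p under 0.05 numbered 3 and members below 0 numbered 7 without the dimmest probe sets, which removed 6 of the 13. Leaving out each animal gave 4 to 6 lower members and 14 to 24 lower list genes. Members below 0 numbered 10 after median centring, 10 with the replicate block, 13 with the GAPDH covariate and 11 to 13 when each animal was left out. With the replicate block, which uses the 10 arrays with shared numbers, 0 probe sets passed and 12 list genes were lower, against 12 and 10 on the same arrays without the block, an alternative chosen after seeing the data. Same-numbered animals deviated together with r of -0.07 to 0.04, so the numbers do not pair them.

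Signs turned for 3 probe sets, and the cause was not tested. Pcna had a log2 change of 0.0069 after median centring and 0.0053 with the block and on the same 10 arrays without it, and -0.049 to 0.010 when each animal was left out. Cdk1 had -0.54 with the GAPDH covariate and -0.14 to 0.30 when each animal was left out, the lowest without normal animal 4. Ccnd1 (1383075_at) had 0.0064 after median centring, 0.038 with array weights, 0.082 with the block and on the same arrays without it, and -0.13 to 0.083 when each animal was left out, above 0 without normal animal 1 or diabetic animals 3 or 6. Of all 306 single values of the 13 probe sets under these alternatives, 290 kept their direction and side of the threshold, 15 turned sign and 1 passed the threshold (Pola2, above). Part of this count was fixed in advance. The filter, the variance models and the exact permutation test leave the log2 change as it is, so no sign could turn there. The permutation test also has no adjusted p to set against the threshold.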
